A study of Homo sapiens with 18 samples.

Results

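HepG2 cells, an established human liver tumour line, were compared between hypoxia and normoxia by sequencing of their polyA+ RNA. The comparison uses 6 of the 18 samples of the series: 3 labelled HepG2 in hypoxia, which their labels give as 0.5% oxygen for 16 h in a hypoxia work station, and 3 labelled HepG2 in normoxia, with no other treatment in either group. The members were taken from these labels alone. In the paper, genes ranked by hypoxic induction were tested for enrichment of those nearest to sites of the hypoxia-inducible factors HIF-1 and HIF-2. HKC-8, a renal tubule line whose other labels give the same 0.5% oxygen for 16 h (its titles say 0.1%), served here as the line for comparison, with 3 hypoxic and 3 normoxic samples. RCC4 renal carcinoma cells that carry a reintroduced VHL gene are labelled 1.0% oxygen for 24 h, so their calls, from a fit of their own, are given only where stated, and were not tested against those of HepG2 cells. HepG2 is a single tumour line and not normal liver. Nothing in the labels says that the 3 samples of a group were separate cultures, so the p-values measure the spread between these samples.

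Hypoxia-inducible factors are heterodimers of an oxygen-labile α-subunit and a stable β-subunit. In oxygenated cells, prolyl hydroxylases mark the α-subunit for destruction through the VHL protein, and when oxygen falls the dimer accumulates and activates genes of glycolysis, angiogenesis, erythropoiesis and pH control. Hepatocytes make most plasma proteins, export lipid in lipoproteins, synthesise cholesterol and bile acids, dispose of ammonia as urea and clear drugs, and across the liver lobule these functions are spread along a natural oxygen gradient.

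Each HepG2 sample held 40915980 to 48355303 counts, which put a gene with 3 counts at 0.0637 to 0.0759 CPM (a counts-per-million scale with TMM library sizes), a limit that covers counting error only. The first principal component held 80.3% of the variance of log2 CPM and separated the hypoxic from the normoxic samples. Replicates of a group differed by more than counting noise, with a χ2 per degree of freedom of 6.50 to 33.0, so that all 6 were counted separately. Because the measurements are shares of a sample's RNA, fewer cells that express a gene and less RNA per cell cannot be told apart.

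The cells carried the RNA of hepatocytes in both conditions. All 20 hepatocyte markers examined passed the low-count filter and stood above 1 CPM in every sample, and their summed level was 37862 to 40306 CPM in normoxia and 45874 to 49162 CPM in hypoxia. Of 15 kidney tubule markers, 3 passed the filter, with a summed level of 11.97 to 15.1 CPM in normoxia and 16.3 to 18.03 CPM in hypoxia. PAX8 was called induced, from a mean of 9.23 to 11.7 CPM, a call lost without hypoxia replicate 1 (adjusted p = 0.0727). CDH16 gained an induced call with a replicate block (adjusted p = 0.0289) and without normoxia replicate 1 (0.00542). Endothelial markers summed to 9.27 to 9.83 and 9.35 to 13.03 CPM, with KDR, TEK, ERG and PLVAP under 0.1 CPM in every group. Fibroblast markers summed to 26.1 to 29.2 and 61.7 to 69.9 CPM, almost all of it from PDGFRB, which rose from 21.2 ± 0.572 to 56.8 ± 3.85 CPM (SD, n = 3), and COL1A1, with a log2 fold change of 0.55 (SE 0.12, adjusted p = 0.00301), while COL1A2, DCN, FAP and POSTN had no counts. Leukocyte markers summed to 2362 to 2462 and 2734 to 2895 CPM, nearly all of it LYZ, with a log2 fold change of 0.21 (SE 0.06, adjusted p = 0.0159), a call lost in 1 fit of all 18 samples (adjusted p = 0.183) and without hypoxia replicate 1 (0.105). Of the other leukocyte markers that passed the filter, CD68, also a lysosomal protein of other cells, rose from 48.4 ± 2.42 to 63.2 ± 3.75 CPM and CD14 fell from 1.45 ± 0.176 to 0.810 ± 0.276 CPM (SD, n = 3), the latter a call lost in 1 fit of all 18 samples and without normoxia replicate 2, hypoxia replicate 1 or hypoxia replicate 2, while PTPRC, CD3E, MS4A1 and TYROBP had no counts. The part of other cell types in the results was not tested beyond these levels.

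Hypoxia changed about as many genes upwards as downwards, but the larger changes were inductions. Among 13623 genes tested, 2708 were induced (19.9%) and 2621 repressed (19.2%) at an adjusted p under 0.05 in edgeR's quasi-likelihood test, the test behind every adjusted p given here unless another is named. Changes of at least 2-fold comprised 563 inductions (4.13%) and 76 repressions (0.558%), and 1893 induced and 1582 repressed genes kept their call in each of the 6 fits that left out 1 sample. The median log2 fold change over all genes tested was -0.00, with quartiles at -0.20 and 0.23. That median and the shares of 19.9% induced and 19.2% repressed are the reference for every list below in HepG2 cells. Among the 907 list members tested, counted once each, 230 were induced and 272 repressed. The hypoxic samples lay wholly above the normoxic ones for 24.8% of the genes tested and wholly below for 25.2%. Genes named below as the largest changes of a list were picked among those without overlap between groups, so their separation is given by that choice and is not a result. List counts of up to 3 members moved by up to 3 between alternatives.

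The gene with the highest response among those with more than a few counts in normoxia was CA9, a cell surface carbonic anhydrase. CA9 read 0.397, 0.466 and 0.720 CPM in normoxia and 184, 175 and 192 CPM in hypoxia, a log2 fold change of 8.45 (SE 0.12, adjusted p = 4.03e-14). SNX32, a sorting nexin, had no counts in normoxia and 0.933, 1.15 and 0.961 CPM in hypoxia, at least 14.5-fold higher when set against 3 counts per sample. PNCK, a calcium/calmodulin-dependent kinase, read 0, 0 and 0.0465 CPM in normoxia and 2.08, 2.04 and 1.85 CPM in hypoxia, which in normoxia is 2 counts over the group, and PPFIA4, a liprin that scaffolds synaptic and adhesion complexes, read 0.0661, 0 and 0.0930 CPM in normoxia and 5.41, 5.86 and 4.12 CPM in hypoxia. APLN, which encodes the vasoactive peptide apelin, rose from at most 0.0465 to at least 1.33 CPM, BEND5 from at most 0.0882 to at least 0.998 CPM, and the ubiquitin ligase RNF183 from at most 0.232 to at least 4.38 CPM. TNS1, a tensin of focal adhesions, read 4.06, 4.19 and 3.74 CPM in normoxia and 125, 116 and 126 CPM in hypoxia, a log2 fold change of 4.93 (SE 0.08, adjusted p = 8.00e-14). In HKC-8 cells the log2 fold change of TNS1 was 0.00 (adjusted p = 0.991) and the difference between the lines 4.94 (SE 0.13, adjusted p = 3.71e-12 for the interaction).

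The steepest repressions that passed the same conditions were smaller. SAMD5 fell from 2.33 ± 1.29 to 0.419 ± 0.170 CPM (SD, n = 3), with a log2 fold change of -2.49 (SE 0.41, adjusted p = 3.42e-04). SLC6A2, the noradrenaline transporter, had a log2 fold change of -2.02 (SE 0.35, adjusted p = 6.07e-04), and KLF15, a Krüppel-like factor that drives amino acid breakdown and gluconeogenesis in fasted liver, one of -1.83 (SE 0.19, adjusted p = 7.62e-06). KLF15 read 7.60, 7.03 and 5.16 CPM in normoxia and 2.29, 1.81 and 1.44 CPM in hypoxia. DKK4, a secreted Wnt antagonist, changed by -1.61, TRIM50, a ubiquitin ligase, by -1.53 and TJP3, a tight junction protein, by -1.38 on the log2 scale, and the remaining genes of this rank, the glutathione transferases GSTA1 and GSTA2, the stress protein NUPR1 and the sulfotransferase SULT2A1, are described with their pathways.

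Promoters of some of the highest and lowest genes with an entry, and of EPO, are shown because HIF binds the letters ACGTG or GCGTG, here searched on both strands (the palindrome CACGTG counts once on each strand, and those 2 matches overlap). Each sequence is the 250 bases before the RefSeq start site in GRCh38.p14, read 5′ to 3′ on the gene's strand, in lower case with matches in capitals. In all 27305 promoters of the RefSeq table, 43.1% held at least 1 match in a window of this length, and of the 10695 promoters of genes tested here, 56.9% did. CA9 is at chr9:35673678-35673927 on the plus strand with 1 match, PNCK at chrX:153687772-153688021 on the minus strand with 0, PPFIA4 at chr1:203026241-203026490 on the plus strand with 3, KLF15 at chr3:126357409-126357658 on the minus strand with 5, GSTA2 at chr6:52763476-52763725 on the minus strand with 0, and EPO at chr7:100720218-100720467 on the plus strand with 0.
CA9: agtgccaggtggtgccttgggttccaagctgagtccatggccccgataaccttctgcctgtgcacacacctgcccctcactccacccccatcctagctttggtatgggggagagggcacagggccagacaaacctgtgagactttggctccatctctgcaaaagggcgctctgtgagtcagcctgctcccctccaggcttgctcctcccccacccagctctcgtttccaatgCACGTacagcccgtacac
PNCK: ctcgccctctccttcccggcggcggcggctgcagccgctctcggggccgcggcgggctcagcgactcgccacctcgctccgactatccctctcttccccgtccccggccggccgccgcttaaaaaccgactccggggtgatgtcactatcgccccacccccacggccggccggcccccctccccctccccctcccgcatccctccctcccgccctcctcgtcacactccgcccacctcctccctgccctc
PPFIA4: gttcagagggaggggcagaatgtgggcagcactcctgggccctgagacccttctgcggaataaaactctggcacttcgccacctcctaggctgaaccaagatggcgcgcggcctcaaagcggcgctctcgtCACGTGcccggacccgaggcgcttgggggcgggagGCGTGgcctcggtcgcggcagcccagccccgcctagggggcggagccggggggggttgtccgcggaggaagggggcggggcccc
KLF15: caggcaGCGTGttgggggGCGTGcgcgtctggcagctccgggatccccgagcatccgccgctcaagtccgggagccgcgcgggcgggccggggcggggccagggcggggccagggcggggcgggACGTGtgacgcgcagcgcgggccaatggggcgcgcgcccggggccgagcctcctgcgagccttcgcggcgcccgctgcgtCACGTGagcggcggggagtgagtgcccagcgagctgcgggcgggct
GSTA2: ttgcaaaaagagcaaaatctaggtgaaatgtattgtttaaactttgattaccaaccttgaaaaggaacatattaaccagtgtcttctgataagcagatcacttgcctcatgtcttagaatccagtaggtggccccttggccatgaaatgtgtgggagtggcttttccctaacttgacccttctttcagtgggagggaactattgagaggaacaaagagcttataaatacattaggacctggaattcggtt
EPO: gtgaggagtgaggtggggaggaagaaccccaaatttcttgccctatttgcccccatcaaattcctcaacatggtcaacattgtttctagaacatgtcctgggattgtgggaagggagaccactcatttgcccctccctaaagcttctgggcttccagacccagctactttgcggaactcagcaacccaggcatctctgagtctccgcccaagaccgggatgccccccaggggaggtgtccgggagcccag
A match is a run of letters and not a bound site, and a window without one says only that these letters are not in it. The induced CA9 and PPFIA4 and the repressed KLF15 all held matches. A comparison of match shares between induced and repressed genes was void, since 73.7% of the genes induced and 63.2% of those repressed at least 2-fold had an entry, under the share of 80% needed for such a comparison. In GRCh37, the build of the counts, GENCODE places the gene CA9 on chromosome 9 from 35673925 to 35681156, KLF15 on chromosome 3 from 126061478 to 126076251 and EPO on chromosome 7 from 100318091 to 100321323.

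**Figure D1:**
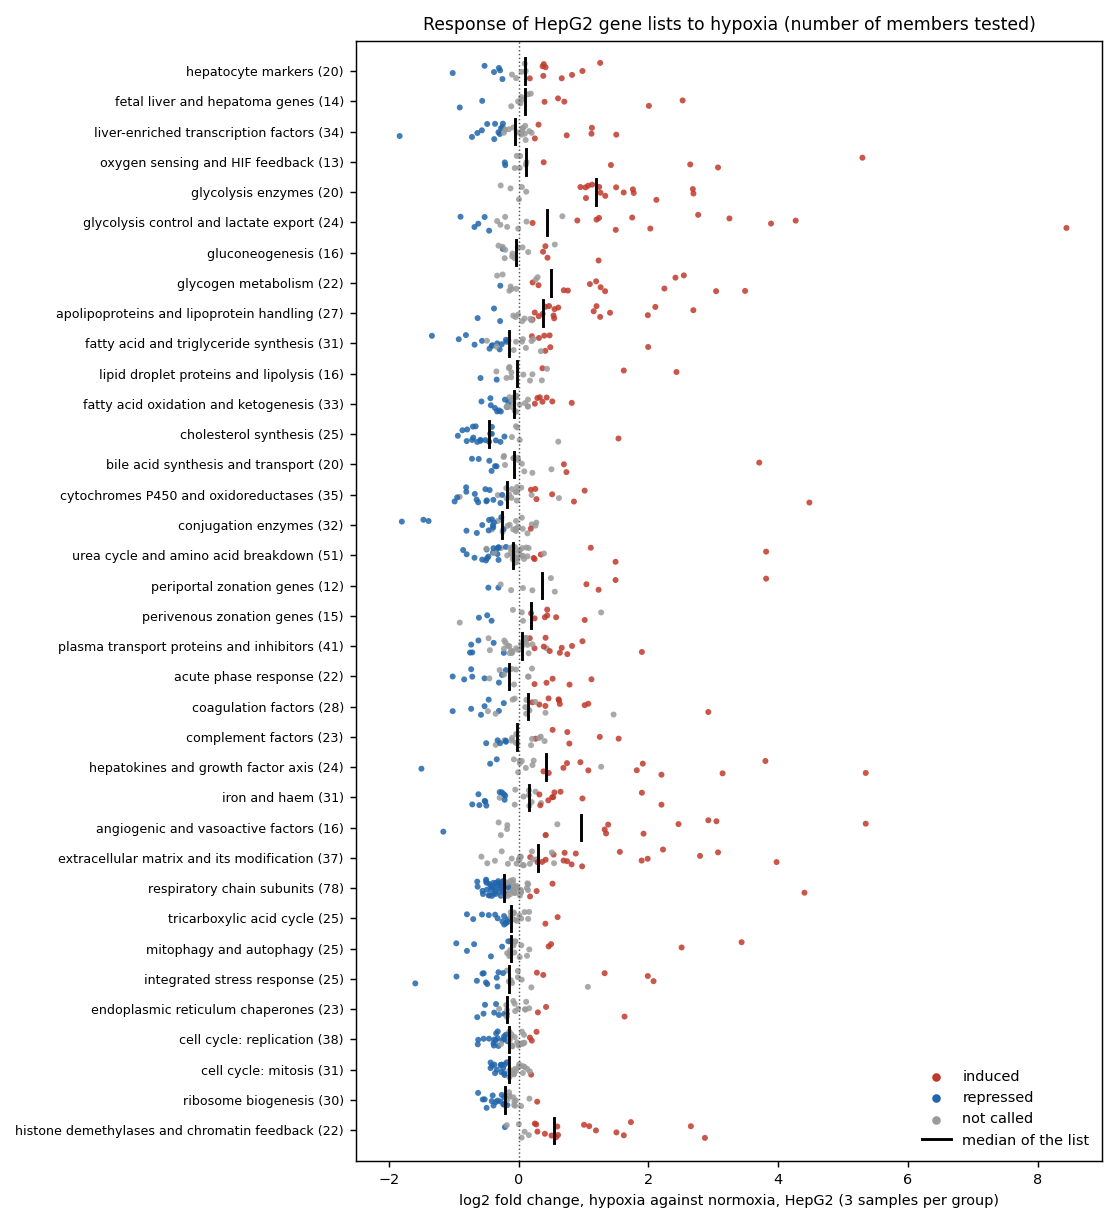
Log2 fold change between hypoxia and normoxia (x axis) of every tested member of 36 gene lists (rows) in HepG2 cells, with 3 samples per group. Points are genes, coloured by their call, and black bars are list medians. The glycolysis median of 1.19 and the cholesterol synthesis median of -0.45 lie furthest apart among the metabolic lists.

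Feedback genes of oxygen sensing were among those induced. Of 13 members of the oxygen sensing and HIF feedback list tested, 5 were induced and 2 repressed. EGLN3, a prolyl hydroxylase that marks HIF-α for destruction, read 1.39, 0.842 and 0.418 CPM in normoxia and 43.6, 30.01 and 31.9 CPM in hypoxia, a log2 fold change of 5.30 (SE 0.24, adjusted p = 1.75e-09). CITED2, which competes with HIF for its coactivator, rose from 18.7 ± 1.65 to 117 ± 4.71 CPM with a log2 fold change of 2.65 (SE 0.08, adjusted p = 1.07e-11). The response of CITED2 was larger than in HKC-8 cells, where its log2 fold change was 0.51 (adjusted p = 0.00170), by 2.14 (SE 0.10, adjusted p = 4.65e-09 for the interaction). LOXL2, a lysyl oxidase placed on this list as a known HIF target, had a log2 fold change of 3.07 (SE 0.15, adjusted p = 2.46e-09). Without normoxia replicate 1 or without hypoxia replicate 2, no member was repressed.

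Most of the glycolytic pathway rose. Of 20 members of the glycolysis enzymes list tested, 15 were induced and 0 repressed, with 14 members up at least 2-fold and a median log2 fold change of 1.19. All 15 induced calls were kept in the 6 fits without 1 sample, and no enzyme fell in edgeR, at an unadjusted p under 0.05 or in DESeq2. The summed level of the enzymes was 10466 to 10802 CPM in normoxia and 26405 to 27817 CPM in hypoxia. HK1, the hexokinase that traps glucose, read 3.22, 3.41 and 2.84 CPM in normoxia and 20.9, 18.8 and 21.7 CPM in hypoxia, a log2 fold change of 2.70 (SE 0.11, adjusted p = 5.29e-10). ALDOC, an aldolase, read 11.8, 11.02 and 9.41 CPM in normoxia and 76.00, 64.8 and 66.6 CPM in hypoxia, a log2 fold change of 2.69 (SE 0.09, adjusted p = 1.10e-10). PGK1, which makes the first ATP of the pathway, read 443, 443 and 413 CPM in normoxia and 1974, 1877 and 1813 CPM in hypoxia, a log2 fold change of 2.12 (SE 0.07, adjusted p = 2.43e-11).

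Single genes that steer glycolytic flux changed by more than any of the enzymes. Of 24 members of the glycolysis control and lactate export list tested, 12 were induced and 5 repressed. PFKFB3 and PFKFB4 encode the bifunctional enzymes that make and remove the strongest allosteric activator of phosphofructokinase. PFKFB3 read 11.9, 12.4 and 14.04 CPM in normoxia and 192, 178 and 199.9 CPM in hypoxia, a log2 fold change of 3.89 (SE 0.08, adjusted p = 6.96e-13). PFKFB4 read 9.21, 9.09 and 9.20 CPM in normoxia and 193, 161 and 177 CPM in hypoxia, a log2 fold change of 4.27 (SE 0.08, adjusted p = 5.08e-13). PDK1, the kinase that shuts pyruvate dehydrogenase, read 21.7, 21.5 and 21.5 CPM in normoxia and 221, 212 and 182 CPM in hypoxia, a log2 fold change of 3.25 (SE 0.08, adjusted p = 3.49e-12). Among the repressed members was SLC2A2, the low-affinity glucose transporter GLUT2 of hepatocytes, at 61.2, 58.9 and 54.99 CPM in normoxia and 32.2, 34.1 and 27.7 CPM in hypoxia, a log2 fold change of -0.90 (SE 0.08, adjusted p = 1.83e-06). PDP2, the phosphatase that reactivates pyruvate dehydrogenase, changed by -0.62 (SE 0.08, adjusted p = 7.94e-05), and TIGAR (C12orf5 in the files), which lowers that activator, by -0.68 (SE 0.07, adjusted p = 7.08e-06) on the log2 scale.

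**Figure D2:**
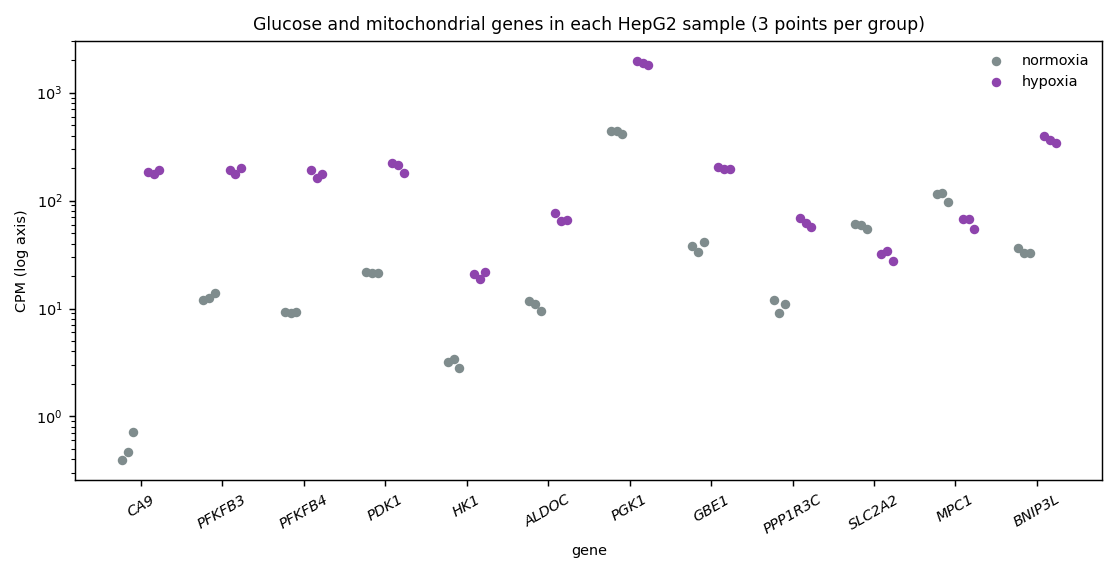
CPM on a log axis (y) of genes of glucose handling and mitochondria (x) in each of the 6 HepG2 samples, normoxia in grey and hypoxia in purple, 3 points per group. The hypoxic points of CA9 lie between 175 and 192 CPM and the normoxic ones under 1 CPM, and SLC2A2 and MPC1 are the genes whose hypoxic points lie below.

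Most glycogen genes rose. Of 22 members of the glycogen metabolism list tested, 13 were induced and 1 repressed, with a median of 0.50. GBE1, the branching enzyme, read 37.6, 33.3 and 41.2 CPM in normoxia and 206, 197 and 197 CPM in hypoxia, a log2 fold change of 2.42 (SE 0.08, adjusted p = 3.26e-11). PPP1R3C, which targets protein phosphatase 1 to glycogen and activates its synthesis, read 12.1, 9.07 and 10.99 CPM in normoxia and 68.7, 61.8 and 57.2 CPM in hypoxia, a log2 fold change of 2.55 (SE 0.10, adjusted p = 5.15e-10), and PPP1R3G, of the same targeting family, changed by 3.04 (SE 0.20, adjusted p = 8.41e-08). Of 16 members of the gluconeogenesis list tested, 4 were induced and 1 repressed (2 without normoxia replicate 3), against 19.9% and 19.2% of all genes, and the median was -0.04. G6PC, the phosphatase that releases free glucose, read 0.705, 0.466 and 0.325 CPM in normoxia and 1.28, 1.38 and 0.860 CPM in hypoxia, a log2 fold change of 1.23 (SE 0.32, adjusted p = 0.00838) at a level near 1 CPM. The induced GPT2, a mitochondrial alanine transaminase, changed by 0.44 (SE 0.06, adjusted p = 1.34e-04) and pyruvate carboxylase (PC) by 0.41 (SE 0.07, adjusted p = 4.41e-04), while the repressed GOT2, a mitochondrial aspartate transaminase, changed by -0.24 (SE 0.06, adjusted p = 0.00489). PCK1, the cytosolic carboxykinase at the head of the pathway, was below 1 CPM in every sample, with a log2 fold change of 0.56 (SE 0.51, adjusted p = 0.416).

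Hepatocyte markers changed in both directions, and albumin did not pass the test. Of 20 members of the hepatocyte markers list tested, 9 were induced and 6 repressed, with a median of 0.10. ALB, which encodes albumin, read 10931, 11146 and 9413 CPM in normoxia and 10839, 10491 and 9331 CPM in hypoxia, a log2 fold change of -0.04 (SE 0.08, adjusted p = 0.744). TTR, the thyroxine and retinol carrier transthyretin, read 232, 196 and 199.8 CPM in normoxia and 241, 211 and 224 CPM in hypoxia, a log2 fold change of 0.11 (SE 0.07, adjusted p = 0.270). The ranges of ALB and TTR overlapped between the groups. AFP, the fetal counterpart of albumin, had a log2 fold change of 0.05 (SE 0.07, adjusted p = 0.613), and of 14 members of the fetal liver and hepatoma genes list tested, 5 were induced and 2 repressed. The induced fetal genes included IGF2, a fetal growth factor, at 606, 509 and 523 CPM in normoxia and 2261, 2064 and 2264 CPM in hypoxia, a log2 fold change of 2.01 (SE 0.08, adjusted p = 3.02e-10), KRT19, a cytokeratin of progenitor and bile duct cells, at 0.70, and the imprinted zinc finger gene PEG3, at 0.61 on the log2 scale, and the repressed ones SPINK1, a trypsin inhibitor, at -0.91. The repressed count fell to 1 without normoxia replicate 1, hypoxia replicate 1 or hypoxia replicate 3.

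For 1672 genes, mean log2 CPM was at least 3 higher (8-fold) in HepG2 cells than over the HKC-8 and RCC4 samples pooled. No gene had to pass that margin against each kidney line. Of the 1672, 475 (28.4%) were induced and 254 (15.2%) repressed, with a median of 0.10, against 19.9% and 19.2% of all genes. Of them, 166 rose and 24 fell by at least 2-fold. The summed level of these liver-enriched genes was 135858 to 139553 CPM in normoxia and 163523 to 169089 CPM in hypoxia. These genes were chosen on the mean of both oxygen conditions, so a gene could enter through a high level in either condition alone. The shares are a description with no test.

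The transcription factors behind hepatocyte identity moved in both directions. Of 34 members of the liver-enriched transcription factors list tested, 6 were induced and 12 repressed, with a median of -0.06. The highest log2 fold change of the list, 1.51, was that of a factor not named here. HNF4A, the nuclear receptor at the centre of the hepatocyte network, read 227, 216 and 225 CPM in normoxia and 242, 234 and 238 CPM in hypoxia, a log2 fold change of 0.09 (SE 0.06, adjusted p = 0.197). The hypoxic values of HNF4A lay above the normoxic ones, by less than the test resolved. FOXA2, a pioneer factor that opens liver enhancers, rose from 29.99 ± 2.30 to 50.2 ± 2.89 CPM with a log2 fold change of 0.74 (SE 0.08, adjusted p = 5.85e-06). ONECUT1 had a log2 fold change of 1.13 (SE 0.21, adjusted p = 0.00102) and CEBPD, an acute phase factor, one of 1.12 (SE 0.12, adjusted p = 1.03e-05). Falling factors were led by KLF15, then NR1H4, the bile acid receptor FXR, at -0.72 (SE 0.11, adjusted p = 2.08e-04), and ONECUT2 at -0.64 (SE 0.10, adjusted p = 2.24e-04). CEBPA, which keeps hepatocytes differentiated and out of the cell cycle, changed by -0.29 (SE 0.06, adjusted p = 0.00210).

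**Figure D3:**
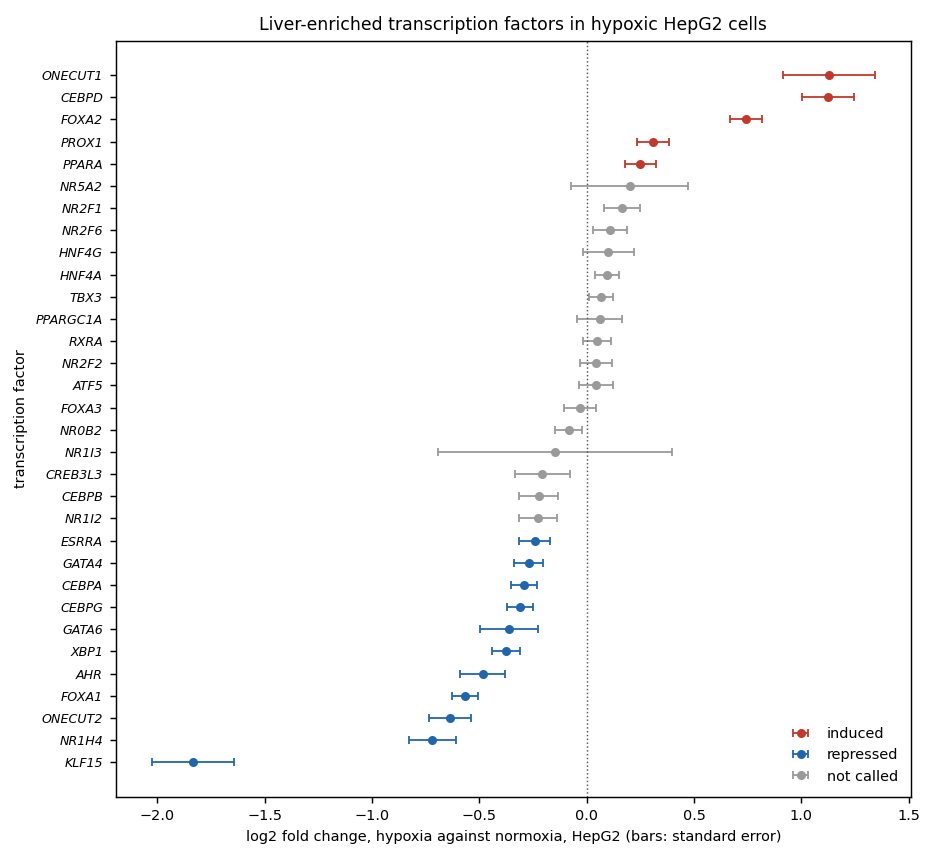
Log2 fold change between hypoxia and normoxia (x axis) of 32 of the 34 liver-enriched transcription factors (y axis) in HepG2 cells, with the standard error as bars and colours by call. ONECUT1 lies at 1.13, where the highest value of the whole list is 1.51. KLF15 lies lowest at -1.83, and HNF4A near 0.

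Plasma transport proteins and inhibitors included genes that rose and genes that fell. Of 41 members of the plasma transport proteins and inhibitors list tested, 11 were induced and 6 repressed, with a median of 0.05, against 19.9% and 19.2% of all genes. TF, the iron carrier transferrin, read 1885, 1863 and 1776 CPM in normoxia and 3738, 3755 and 3428 CPM in hypoxia, a log2 fold change of 0.98 (SE 0.06, adjusted p = 7.45e-08). AHSG, the calcification inhibitor fetuin-A, read 2743, 2690.1 and 2542 CPM in normoxia and 4862, 4686 and 4561 CPM in hypoxia, a log2 fold change of 0.82 (SE 0.06, adjusted p = 3.61e-07). CP, the ferroxidase ceruloplasmin, read 114, 85.5 and 97.4 CPM in normoxia and 395, 384 and 329.8 CPM in hypoxia, a log2 fold change of 1.90 (SE 0.10, adjusted p = 6.93e-09). The repressed members were led by CPN2, a subunit of carboxypeptidase N, at -0.75 (SE 0.06, adjusted p = 4.73e-07), KNG1, kininogen, at -0.73 (SE 0.18, adjusted p = 0.00609), and HP, haptoglobin, which binds free haemoglobin, at -0.71 (SE 0.13, adjusted p = 6.64e-04). Without normoxia replicate 3, 11 members of this list were repressed.

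More acute phase genes fell than rose. Of 22 members of the acute phase response list tested, 5 were induced and 8 repressed, with a median of -0.15. FGG, a fibrinogen chain, read 962, 893 and 703 CPM in normoxia and 504, 415 and 345 CPM in hypoxia, a log2 fold change of -1.02 (SE 0.13, adjusted p = 4.05e-05). HP read 117, 98.00 and 86.8 CPM in normoxia and 74.04, 60.4 and 49.6 CPM in hypoxia. IL6R, the receptor through which interleukin-6 drives the acute phase, had a log2 fold change of -0.73 (SE 0.09, adjusted p = 3.72e-05). Among the hypoxic samples, replicate 1 stood closest to normoxia for both FGG and HP. The induced members included C3, the central complement protein, at 0.52 (SE 0.07, adjusted p = 7.14e-05), CEBPD, and the metallothionein MT2A at 0.78 (SE 0.20, adjusted p = 0.00655), whose call was lost in DESeq2 (adjusted p = 0.0560). HAMP, the iron hormone hepcidin, read 46.4, 65.99 and 38.4 CPM in normoxia and 45.5, 41.03 and 36.5 CPM in hypoxia, a log2 fold change of -0.29 (SE 0.15, adjusted p = 0.142), which without normoxia replicate 3 was a repressed call of -0.46 (adjusted p = 0.00419). Without hypoxia replicate 2, 5 members were repressed.

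Clotting and complement genes were called in both directions. Of 28 members of the coagulation factors list tested, 10 were induced and 7 repressed, with a median of 0.14. Their log2 fold changes ran from -1.02 to 2.92, the highest in a gene not named here. SERPIND1, heparin cofactor 2, changed by 0.64 (SE 0.06, adjusted p = 4.52e-06) and F12, the contact factor, by 1.02 (SE 0.18, adjusted p = 6.51e-04), against -0.53 (SE 0.13, adjusted p = 0.00481) for FGB, another fibrinogen chain. Of 23 members of the complement factors list tested, 6 were induced and 5 repressed, with a median of -0.02. Induced complement genes of the lectin pathway were MASP1, its serine protease, at 1.54 (SE 0.12, adjusted p = 5.25e-07), and MBL2, mannose-binding lectin, at 1.25 (SE 0.16, adjusted p = 3.78e-05). Repressed were C4BPB, part of the C4b-binding protein, at -0.50 (SE 0.09, adjusted p = 8.06e-04), and the complement inhibitor CD59 at -0.29 (SE 0.07, adjusted p = 0.00521). The complement shares are near the 19.9% induced and 19.2% repressed of all genes, and the counts rested on single samples, with 3 induced without hypoxia replicate 1, 3 repressed without either normoxia replicate 1 or 2, and 2 repressed without either hypoxia replicate 2 or 3.

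Iron and haem genes moved in both directions. EPO, erythropoietin, which drives red cell formation, read 4.12, 5.50 and 4.49 CPM in normoxia and 22.5, 21.6 and 20.8 CPM in hypoxia, a log2 fold change of 2.20 (SE 0.11, adjusted p = 4.67e-09). Of 31 members of the iron and haem list tested, 10 were induced and 11 repressed, with a median of 0.16. ID1, a target of the BMP signal that controls hepcidin, changed by 0.46 (SE 0.08, adjusted p = 5.16e-04), and was repressed in HKC-8 cells (-0.60 (adjusted p = 0.0485)). Repressed members included UROD, a haem synthesis enzyme, at -0.61 (SE 0.07, adjusted p = 1.09e-05), and HPX, the haem carrier hemopexin, at -0.62 (SE 0.14, adjusted p = 0.00380).

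Among secreted growth regulators and vascular factors, induced members outnumbered repressed ones. Of 24 members of the hepatokines and growth factor axis list tested, 12 were induced and 3 repressed, with a median of 0.42, and the 3 repressed members lost their calls without hypoxia replicate 2 and in 1 fit of all 18 samples. ANGPTL4, which inhibits lipoprotein lipase, read 0.375, 0.532 and 0.442 CPM in normoxia and 19.4, 17.2 and 18.8 CPM in hypoxia, a log2 fold change of 5.35 (SE 0.15, adjusted p = 8.70e-12). IGFBP1, the hepatic IGF-binding protein, read 76.9, 85.1 and 104 CPM in normoxia and 851, 740.1 and 764 CPM in hypoxia, a log2 fold change of 3.14 (SE 0.10, adjusted p = 5.79e-11). IGFBP3, the main IGF carrier of plasma, read 0.816, 1.11 and 0.790 CPM in normoxia and 15.1, 12.6 and 10.4 CPM in hypoxia, a log2 fold change of 3.80 (SE 0.18, adjusted p = 3.04e-09). Of 16 members of the angiogenic and vasoactive factors list tested, 9 were induced and 1 repressed, with a median of 0.96. VEGFA, the principal endothelial growth factor, read 64.9, 75.1 and 69.3 CPM in normoxia and 189, 180.5 and 175 CPM in hypoxia, a log2 fold change of 1.38 (SE 0.07, adjusted p = 2.99e-09). ADM, the vasodilator peptide adrenomedullin, changed by 3.05 (SE 0.08, adjusted p = 6.94e-12), and NOS3, endothelial nitric oxide synthase, was the repressed member at -1.16 (SE 0.15, adjusted p = 5.70e-05).

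About as many matrix genes rose as did not pass the test, and the lysyl oxidases LOX, LOXL2 and LOXL3 were among those that rose. LOXL1 and LOXL4, also on the list, were not among the genes named by rule, and their values are not given here. Of 37 members of the extracellular matrix and its modification list tested, 18 were induced and 0 repressed, with a median of 0.29 and 17 of the 18 calls kept in every fit without 1 sample. At an unadjusted p under 0.05, 4 members were lower in hypoxia, and DESeq2 called 0 repressed. LOX, a collagen-crosslinking lysyl oxidase, read 22.1, 19.7 and 24.8 CPM in normoxia and 349, 351 and 349 CPM in hypoxia, a log2 fold change of 3.98 (SE 0.08, adjusted p = 6.96e-13). LOXL2 read 4.65, 5.99 and 7.02 CPM in normoxia and 43.2, 46.05 and 59.3 CPM in hypoxia and LOXL3 0.860, 0.820 and 0.488 CPM in normoxia and 5.74, 4.61 and 4.83 CPM in hypoxia. Each of these 3 named lysyl oxidases responded more than in HKC-8 cells, by 1.79 (SE 0.12, adjusted p = 2.59e-07 for the interaction) for LOX, 1.88 (SE 0.18, adjusted p = 9.87e-06 for the interaction) for LOXL2 and 2.83 (SE 0.31, adjusted p = 4.58e-05 for the interaction) for LOXL3. The number repressed was 3 without normoxia replicate 3, with no filter on low counts and with a replicate block, and 1 in 1 fit of all 18 samples and without normoxia replicate 2, hypoxia replicate 1 or hypoxia replicate 2.

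**Figure D4:**
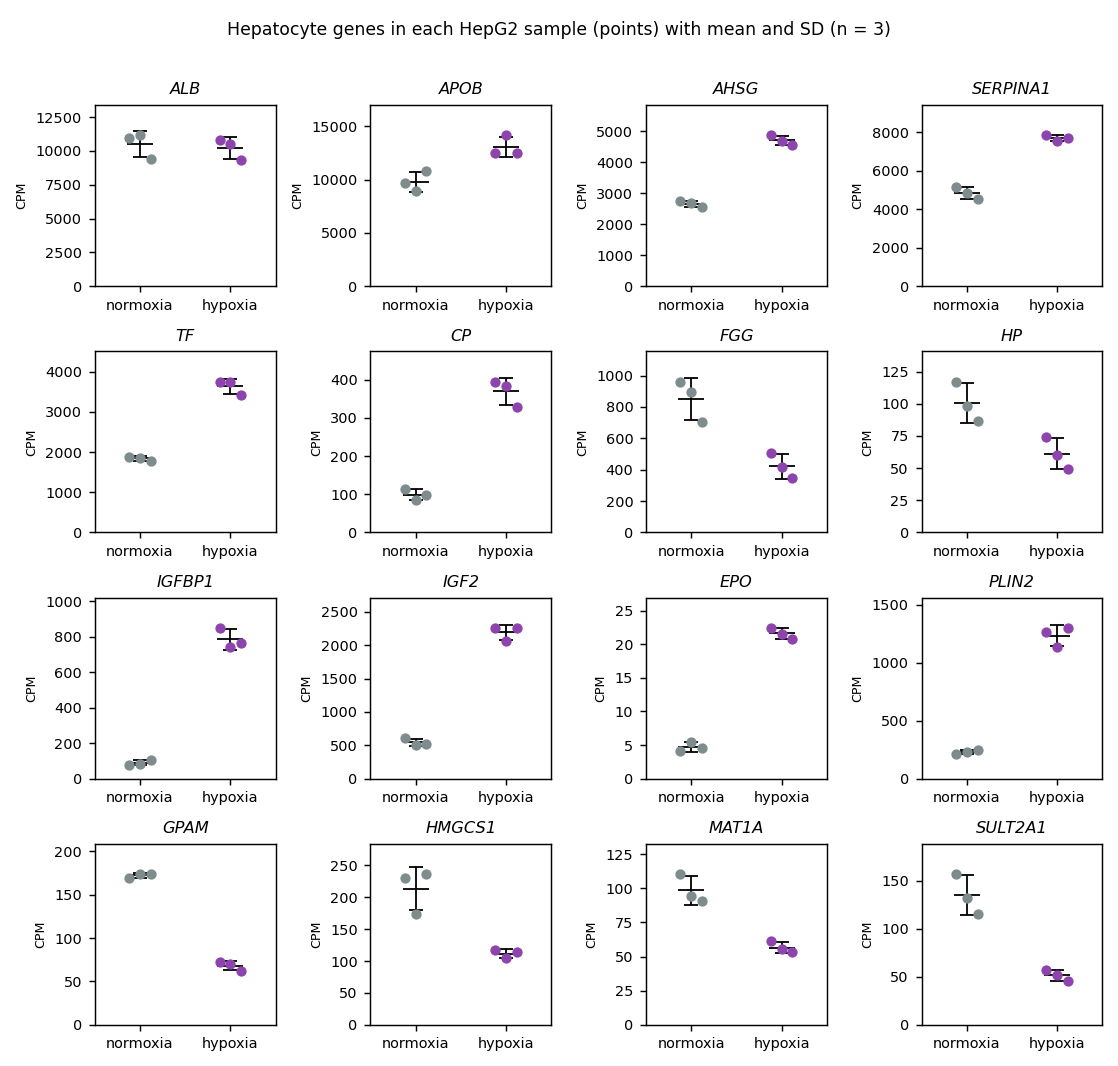
CPM (y axis, from 0) of 16 hepatocyte genes in each HepG2 sample (points), with the mean and SD of 3 samples, normoxia in grey and hypoxia in purple. The ALB groups overlap, TF and CP lie higher in hypoxia, and FGG, GPAM, HMGCS1, MAT1A and SULT2A1 lie lower.

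Most lipoprotein genes rose. Of 27 members of the apolipoproteins and lipoprotein handling list tested, 17 were induced and 3 repressed, with a median of 0.37 and 14 of the 17 calls kept in every fit without 1 sample. APOB, the structural protein of very low density lipoprotein, read 9640.2, 8973 and 10782 CPM in normoxia and 12531, 14151 and 12510.1 CPM in hypoxia, a log2 fold change of 0.42 (SE 0.08, adjusted p = 0.00126). APOC3, which slows triglyceride clearance, read 32.4, 33.1 and 22.4 CPM in normoxia and 74.1, 71.7 and 64.4 CPM in hypoxia, a log2 fold change of 1.26 (SE 0.12, adjusted p = 2.93e-06). APOL1, a lipoprotein-bound defence protein, read 37.2, 36.3 and 31.8 CPM in normoxia and 226, 217 and 238 CPM in hypoxia, a log2 fold change of 2.69 (SE 0.07, adjusted p = 6.94e-12). APOA4 changed by 2.11 (SE 0.19, adjusted p = 1.70e-06) and VLDLR, the receptor that takes up triglyceride-rich particles, by 1.99 (SE 0.11, adjusted p = 1.71e-08). APOA2, of high density lipoprotein, was repressed, at -0.38 (SE 0.07, adjusted p = 0.00120), and APOA1, its main protein, induced, at 0.37 (SE 0.09, adjusted p = 0.00500).

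More genes of fatty acid and triglyceride synthesis fell than rose. Of 31 members of the fatty acid and triglyceride synthesis list tested, 7 were induced and 13 repressed, with a median of -0.16, and 8 were repressed without hypoxia replicate 2. GPAM, which takes the first step of glycerolipid synthesis, read 169, 174 and 174 CPM in normoxia and 71.9, 70.5 and 62.4 CPM in hypoxia, a log2 fold change of -1.34 (SE 0.06, adjusted p = 3.06e-09). MLXIPL, the glucose-sensing lipogenic factor ChREBP, read 61.6, 64.3 and 50.9 CPM in normoxia and 32.02, 33.9 and 27.3 CPM in hypoxia, a log2 fold change of -0.92 (SE 0.10, adjusted p = 8.55e-06), and ACSL1, which activates fatty acids, changed by -0.81 (SE 0.08, adjusted p = 5.09e-06). AGPAT2, which acts directly after GPAM in the pathway, went the other way, at 4.43, 3.72 and 3.67 CPM in normoxia and 15.5, 14.8 and 17.00 CPM in hypoxia, a log2 fold change of 2.00 (SE 0.11, adjusted p = 1.46e-08). SCD, the desaturase that makes oleate and itself needs oxygen, changed by 0.49 (SE 0.08, adjusted p = 3.43e-04), and LPIN2, a phosphatidate phosphatase, by 0.48 (SE 0.07, adjusted p = 1.16e-04). FASN, fatty acid synthase, changed by -0.26 (SE 0.07, adjusted p = 0.0138), a call lost in 1 fit of all 18 samples (adjusted p = 0.346), without normoxia replicate 1 (0.0778) and without hypoxia replicate 2 (0.0837).

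Of the lipid droplet genes, PLIN2 and HILPDA rose the most. PLIN2, the main droplet protein of hepatocytes, read 211, 231 and 243 CPM in normoxia and 1267, 1130.2 and 1301 CPM in hypoxia, a log2 fold change of 2.43 (SE 0.08, adjusted p = 3.48e-11). HILPDA, which inhibits the lipase ATGL, read 10.3, 11.3 and 8.51 CPM in normoxia and 32.00, 29.5 and 31.3 CPM in hypoxia, a log2 fold change of 1.62 (SE 0.10, adjusted p = 3.88e-08). Of 16 members of the lipid droplet proteins and lipolysis list tested, 3 were induced and 2 repressed, with a median of -0.02, against 19.9% and 19.2% of all genes, and DESeq2 called 5 induced. PNPLA2, which encodes ATGL, changed by 0.37 (SE 0.08, adjusted p = 0.00221) and its activator ABHD5 by -0.59 (SE 0.11, adjusted p = 7.36e-04). Of 33 members of the fatty acid oxidation and ketogenesis list tested, 7 were induced (21.2%) and 10 repressed (30.3%), with a median of -0.07, against the same shares of all genes. ETFB, an electron carrier of β-oxidation, changed by 0.82 (SE 0.06, adjusted p = 2.42e-07) and ACADVL, a long-chain dehydrogenase, by 0.52 (SE 0.06, adjusted p = 1.49e-05), against -0.57 (SE 0.08, adjusted p = 1.10e-04) for the fatty acid transporter SLC27A2 and -0.44 (SE 0.07, adjusted p = 3.48e-04) for ACADSB, a dehydrogenase of branched short acyl chains. Repressed members numbered 5 or 6 without normoxia replicate 1 or any one of the 3 hypoxic samples.

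Cholesterol synthesis held the highest share of repressed members of any list, 76.0%. Of 25 members of the cholesterol synthesis list tested, 1 was induced and 19 repressed, with a median of -0.45 and 18 of the 19 calls kept in every fit without 1 sample. The summed level of the list was 3817 to 4150 CPM in normoxia and 2855 to 3101 CPM in hypoxia. HMGCS1, which makes the substrate of the pathway, read 229.8, 174 and 237 CPM in normoxia and 117, 104 and 114 CPM in hypoxia, a log2 fold change of -0.94 (SE 0.10, adjusted p = 7.64e-06). MSMO1, an oxygen-using sterol demethylase, read 262, 257 and 237 CPM in normoxia and 143, 129.5 and 142 CPM in hypoxia, a log2 fold change of -0.87 (SE 0.06, adjusted p = 2.53e-07). Further along the pathway, HSD17B7 changed by -0.80 (SE 0.10, adjusted p = 3.53e-05), IDI1 by -0.79 (SE 0.06, adjusted p = 2.93e-07) and LSS, which closes the sterol ring, by -0.64 (SE 0.07, adjusted p = 1.16e-05). INSIG2, which holds the SREBP activator in the endoplasmic reticulum, was the single induced member, at 107, 99.3 and 98.03 CPM in normoxia and 328, 283 and 275 CPM in hypoxia, a log2 fold change of 1.54 (SE 0.07, adjusted p = 3.06e-09).

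More bile acid and drug-clearing genes fell than rose. Of 20 members of the bile acid synthesis and transport list tested, 3 were induced and 6 repressed, with a median of -0.08. CYP27A1, which starts the acidic bile acid route, changed by -0.42 (SE 0.06, adjusted p = 2.08e-04), ABCG8, a subunit of the canalicular sterol exporter, by -0.62 (SE 0.09, adjusted p = 1.08e-04), and KLB, the FGF19 co-receptor, by -0.45 (SE 0.07, adjusted p = 1.40e-04). SLC51A, a basolateral bile acid exporter, rose instead, at 0.639, 0.599 and 0.488 CPM in normoxia and 7.32, 7.01 and 8.42 CPM in hypoxia, a log2 fold change of 3.71 (SE 0.17, adjusted p = 2.31e-09), and ABCB4, the phospholipid exporter, changed by 0.74 (SE 0.13, adjusted p = 5.39e-04). CYP7A1, which starts the classic route, did not pass the filter, at 0.132, 0 and 0.0697 CPM in normoxia and 0.140, 0.0425 and 0 CPM in hypoxia.

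Of 35 members of the cytochromes P450 and oxidoreductases list tested, 7 were induced and 14 repressed, with a median of -0.19. ALDH1B1, a mitochondrial aldehyde dehydrogenase, read 221, 193 and 199 CPM in normoxia and 110.0, 105 and 103 CPM in hypoxia, a log2 fold change of -0.95 (SE 0.06, adjusted p = 1.10e-07). CYP4F3 and CYP4F12, fatty acid hydroxylases, changed by -0.99 (SE 0.14, adjusted p = 8.40e-05) and -0.81 (SE 0.15, adjusted p = 9.29e-04). CYP26A1, which degrades retinoic acid, rose from at most 0.0887 CPM to at least 1.01 CPM, and FMO5 by 1.02 (SE 0.13, adjusted p = 5.56e-05). CYP1A1, the dioxin-inducible P450, changed by 0.85 (SE 0.13, adjusted p = 1.67e-04), a call lost in 1 fit of all 18 samples (adjusted p = 0.0768). CYP3A4, the major drug-metabolising P450 of adult liver, was below 1 CPM in all samples, with a log2 fold change of -0.91 (SE 0.37, adjusted p = 0.0699) that was called without normoxia replicate 1 (adjusted p = 0.0461), and CYP2E1 did not pass the filter.

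Repressed conjugation enzymes outnumbered induced ones. Of 32 members of the conjugation enzymes list tested, 1 was induced and 14 repressed, with a median of -0.26 and 9 of the 14 repressed calls kept in every fit without 1 sample. The induced conjugation enzymes numbered 0 without normoxia replicate 1, hypoxia replicate 1 or hypoxia replicate 3, and 2 without normoxia replicate 2. SULT2A1, which sulfates steroids and bile acids, read 157, 133 and 116 CPM in normoxia and 57.5, 51.4 and 45.98 CPM in hypoxia, a log2 fold change of -1.39 (SE 0.10, adjusted p = 2.98e-07). GSTA1, a hepatic glutathione transferase, read 16.2, 16.5 and 12.02 CPM in normoxia and 6.30, 5.29 and 4.58 CPM in hypoxia, a log2 fold change of -1.47 (SE 0.14, adjusted p = 4.21e-06). GSTA2 read 3.77, 5.41 and 3.16 CPM in normoxia and 1.59, 1.08 and 0.860 CPM in hypoxia, a log2 fold change of -1.80 (SE 0.25, adjusted p = 9.00e-05). GSTA1 and GSTA2 are near-identical copies, so the discarding of reads that map to more than 1 place makes the level of each uncertain, as it does for other genes named here with close paralogues, such as HP, MT2A, CYP4F3 and CYP4F12.

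More genes of amino acid breakdown fell than rose. Of 51 members of the urea cycle and amino acid breakdown list tested, 6 were induced and 16 repressed, with a median of -0.09 and 14 of the 16 repressed calls kept in every fit without 1 sample. MAT1A, the liver form of methionine adenosyltransferase, read 111, 94.3 and 90.8 CPM in normoxia and 61.03, 55.4 and 53.2 CPM in hypoxia, a log2 fold change of -0.80 (SE 0.08, adjusted p = 5.11e-06), and KYNU, of tryptophan breakdown, changed by -0.68 (SE 0.09, adjusted p = 8.16e-05). CPS1, the entry enzyme of the urea cycle, read 60.4, 52.3 and 54.3 CPM in normoxia and 61.6, 58.00 and 55.2 CPM in hypoxia, a log2 fold change of 0.07 (SE 0.07, adjusted p = 0.498). Its last enzyme, ARG1, read 0.265, 0.222 and 0.0930 CPM in normoxia and 3.75, 2.99 and 1.54 CPM in hypoxia, a log2 fold change of 3.82 (SE 0.40, adjusted p = 8.56e-06). The groups overlapped for CPS1.

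Zonation genes of both sides of the lobule were called in each direction, with repressed shares near the 19.2% of all genes. The induced shares, 33.3% of periportal and 46.7% of perivenous genes, lay above the 19.9% of all genes. With at least 10 counts in every sample, 2 periportal genes were induced. Of 12 members of the periportal zonation genes list tested, 4 were induced and 2 repressed, with a median of 0.35, and of 15 members of the perivenous zonation genes list tested, 7 were induced and 3 repressed, with a median of 0.19. Periportal SLC7A2, a cationic amino acid transporter, changed by 1.05 (SE 0.07, adjusted p = 1.39e-07) and GLS2, the liver glutaminase, by -0.47 (SE 0.10, adjusted p = 0.00236), a call lost in 1 fit of all 18 samples (adjusted p = 0.0506), in which no periportal gene was repressed. Perivenous AXIN2, a Wnt target, changed by 0.58 (SE 0.06, adjusted p = 3.20e-06), the glutamate transporter SLC1A2 by 1.02 (SE 0.11, adjusted p = 1.09e-05) and the ammonium transporter RHBG by -0.61 (SE 0.13, adjusted p = 0.00205). GLUL, glutamine synthetase, the defining perivenous enzyme, read 460.0, 372 and 375 CPM in normoxia and 420.2, 359.7 and 356 CPM in hypoxia, a log2 fold change of -0.09 (SE 0.09, adjusted p = 0.469). The GLUL ranges overlapped.

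Repressed mitochondrial genes outnumbered induced ones. Of 78 members of the respiratory chain subunits list tested, 4 were induced and 40 repressed, with a median of -0.22. COX7B, of cytochrome oxidase, changed by -0.64 (SE 0.12, adjusted p = 0.00102) and ATP5G1, of the ATP synthase rotor, by -0.63 (SE 0.10, adjusted p = 3.00e-04). NDUFA4L2, a HIF-induced paralogue that lowers complex I activity, read 0.132, 0.310 and 0.372 CPM in normoxia and 6.13, 5.82 and 5.39 CPM in hypoxia, a log2 fold change of 4.41 (SE 0.25, adjusted p = 1.31e-08). Without normoxia replicate 2, 26 subunits were repressed, and without hypoxia replicate 2, 22. Of 25 members of the tricarboxylic acid cycle list tested, 2 were induced and 12 repressed, with a median of -0.12, and 7 were repressed without hypoxia replicate 1. MPC1 and MPC2, which form the carrier of pyruvate into mitochondria, changed by -0.80 (SE 0.09, adjusted p = 1.91e-05) and -0.70 (SE 0.09, adjusted p = 3.45e-05).

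Of 25 members of the mitophagy and autophagy list tested, 4 were induced and 6 repressed, with a median of -0.11, shares near the 19.9% and 19.2% of all genes. BNIP3L, a mitophagy receptor, read 36.2, 32.7 and 32.7 CPM in normoxia and 396, 364 and 341 CPM in hypoxia, a log2 fold change of 3.44 (SE 0.08, adjusted p = 1.34e-12). BNIP3, its relative, read 100.5, 103 and 96.5 CPM in normoxia and 603, 581 and 529 CPM in hypoxia, a log2 fold change of 2.51 (SE 0.07, adjusted p = 6.94e-12). SQSTM1, the autophagy adaptor p62, read 367, 433 and 462 CPM in normoxia and 209, 202 and 237 CPM in hypoxia, a log2 fold change of -0.96 (SE 0.09, adjusted p = 1.75e-06). TFEB, the lysosomal master regulator, changed by -0.69 (SE 0.10, adjusted p = 9.54e-05).

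In each growth list, repressed genes outnumbered induced ones. Of 38 members of the DNA replication list tested, 3 were induced and 17 repressed, with a median of -0.14, led by PCNA, the polymerase clamp, at -0.63 (SE 0.08, adjusted p = 3.87e-05), and 1 was induced without hypoxia replicate 1 or 2. Of 31 members of the mitosis list tested, 1 was induced and 15 repressed, with a median of -0.14, led by CCNB1, cyclin B1, at -0.43 (SE 0.07, adjusted p = 2.94e-04), and 3 were induced without normoxia replicate 3 and 0 without any of 4 other samples. Of 30 members of the ribosome biogenesis list tested, 1 was induced and 17 repressed, with a median of -0.22, led by RRP9, of the small subunit processome, at -0.63 (SE 0.07, adjusted p = 1.36e-05), and 11 were repressed without hypoxia replicate 1. The chromatin list went the other way, and of 22 members of the histone demethylases and chromatin feedback list tested, 16 were induced and 1 repressed, with a median of 0.54 and all 16 induced calls kept in every fit without 1 sample. KDM3A, an oxygen-dependent demethylase of histone H3 lysine 9, read 62.8, 58.6 and 65.5 CPM in normoxia and 217, 206 and 197 CPM in hypoxia, a log2 fold change of 1.73 (SE 0.07, adjusted p = 2.14e-10), and BHLHE40, a transcriptional repressor, changed by 2.87 (SE 0.16, adjusted p = 1.06e-08).

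The responses of HepG2 and HKC-8 cells were compared by an interaction term in a joint edgeR fit of their 12 samples. Of 15046 genes tested, 755 (5.02%) had a higher and 644 (4.28%) a lower log2 fold change in HepG2 cells. These counts moved with the samples: 492 genes were higher without HepG2 normoxia replicate 2, 481 without HepG2 hypoxia replicate 1 and 501 without HepG2 hypoxia replicate 3, and without HKC-8 normoxia replicate 3 the order turned, with 890 higher and 1000 lower. With the replicate number as a block, 1656 were higher and 1363 lower. Cell line and depth, which was higher in HKC-8 libraries, cannot be told apart.

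Most cholesterol synthesis genes fell in HepG2 cells and most rose in HKC-8 cells. Of its 25 genes, 19 (20 with a replicate block) had a lower log2 fold change in HepG2 than in HKC-8 cells, and in HKC-8 cells 14 were induced (19 with the block), with a median of 0.46. Without the block, 1522 of all 13536 genes tested in HKC-8 cells were induced and 1235 repressed. HMGCS1 had a log2 fold change of -0.94 in HepG2 and 0.75 (adjusted p = 0.00911) in HKC-8 cells, a difference of -1.69 (SE 0.20, adjusted p = 9.22e-05 for the interaction). MSMO1 differed by -1.62 (SE 0.19, adjusted p = 9.22e-05 for the interaction) and MVD, which makes isopentenyl pyrophosphate, by -1.42 (SE 0.20, adjusted p = 4.42e-04 for the interaction). In the RCC4 cells, 4 of the 25 were induced and 9 repressed, with a median of -0.03, against 3318 induced and 3105 repressed of all 12811 genes tested there. INSIG2 was induced in both lines, at 2.02 (adjusted p = 6.63e-05) in HKC-8 cells, and its difference was -0.47 (SE 0.18, adjusted p = 0.111 for the interaction), a call gained with the replicate block (adjusted p = 0.00262), in 1 fit of all 18 samples (0.0457) and without HKC-8 normoxia replicate 3 or hypoxia replicate 2.

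The integrated stress response, the programme by which ATF4 restores amino acid supply, also differed between the lines. Of 25 members of the integrated stress response list tested, 5 were induced and 11 repressed in HepG2 cells, against 24 induced of 25 in HKC-8 cells (25 with a replicate block), and 20 of the 25 had a lower log2 fold change in HepG2 cells (21 with the block). Over all genes tested in HKC-8 cells without the block, 1522 of 13536 were induced. In the RCC4 cells, 7 of 23 were induced and 8 repressed, with a median of -0.05, against 3318 induced and 3105 repressed of all 12811 genes tested there. ATF4 read 446, 466 and 438 CPM in normoxia and 383, 346 and 349 CPM in hypoxia, a log2 fold change of -0.33 (SE 0.06, adjusted p = 0.00112), and 0.52 (adjusted p = 0.00308) in HKC-8 cells. DDIT3, the stress factor CHOP, read 13.7, 18.5 and 14.97 CPM in normoxia and 8.58, 7.69 and 8.02 CPM in hypoxia, a log2 fold change of -0.96 (SE 0.12, adjusted p = 2.99e-05), and differed between the lines by -1.86 (SE 0.24, adjusted p = 1.80e-04 for the interaction). NUPR1, a stress-induced chromatin protein, read 26.8, 30.5 and 27.1 CPM in normoxia and 9.72, 9.18 and 9.05 CPM in hypoxia, a log2 fold change of -1.59 (SE 0.09, adjusted p = 9.73e-09), and differed by -3.38 (SE 0.54, adjusted p = 0.00105 for the interaction). The serine synthesis enzymes PSAT1 and PSPH differed by -1.90 (SE 0.18, adjusted p = 1.07e-05 for the interaction) and -1.61 (SE 0.16, adjusted p = 2.22e-05 for the interaction), the cystine transporter SLC7A11 by -2.11 (SE 0.23, adjusted p = 4.09e-05 for the interaction) and the stress sestrin SESN2 by -1.69 (SE 0.15, adjusted p = 4.44e-06 for the interaction). DDIT4, which restrains mTORC1, VLDLR and STC2 were induced in both lines, with log2 fold changes in HepG2 cells of 2.08, 1.99 and 1.33.

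**Figure D5:**
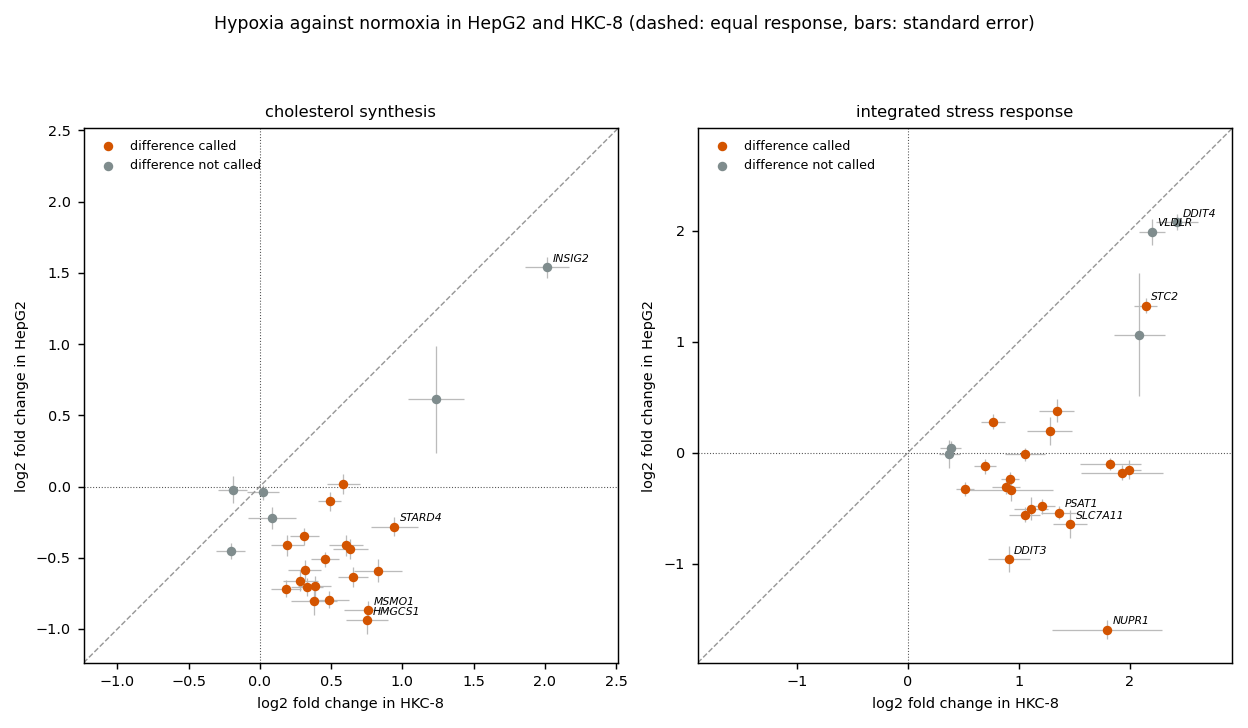
Log2 fold change between hypoxia and normoxia in HepG2 (y axis) against that in HKC-8 cells (x axis) for members of cholesterol synthesis (left) and of the integrated stress response (right), with standard errors as bars and the line of equal response dashed. Orange points have an adjusted interaction p under 0.05, and most of them lie above 0 in HKC-8 and below 0 in HepG2 cells.

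Of 23 members of the endoplasmic reticulum chaperones list tested, 3 were induced and 8 repressed, with a median of -0.18, and 4 were lower and 1 higher in HepG2 than in HKC-8 cells (4 and 3 with the block). ERO1L, the oxidase that drives disulphide formation, read 129.7, 116 and 151 CPM in normoxia and 404, 414 and 414 CPM in hypoxia, a log2 fold change of 1.63 (SE 0.08, adjusted p = 5.49e-09). XBP1, the splicing-activated factor of secretory capacity, changed by -0.38 (SE 0.06, adjusted p = 4.85e-04) and differed by -0.79 (SE 0.12, adjusted p = 6.06e-04 for the interaction), and SDF2L1 changed by -0.64 (SE 0.09, adjusted p = 1.10e-04). Over all lists, 26 members were called in opposite directions in the 2 lines with a called difference. Of these, CYP24A1, which degrades vitamin D, and ID1 were induced in HepG2 cells, and the other 24 were repressed there.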

How the data were processed

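PolyA+ RNA of HepG2, HKC-8 and RCC4 cells was sequenced with a ScriptSeq v2 kit, 3 samples per group. Per the submitters' processing notes, Trim Galore 0.3.3, TopHat2 2.0.8b, Bowtie 1.0.0, SAMtools 0.1.19 and HTSeq 0.5.4p3 were used on GRCh37. The authors discarded fragments that did not map uniquely and deposited raw counts per gene, without normalization. Discarding them lowers genes with near-identical copies, and the strand setting of the counting is not given in the sources used here, so antisense partners cannot be told apart.

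From the counts, HepG2 samples were fitted alone with R 4.3.3 and edgeR 4.0.16 (filterByExpr, TMM, glmQLFit, glmQLFTest). The Benjamini-Hochberg adjustment ran over all genes tested, and a call means an adjusted p under 0.05. CPM are TMM-scaled. The standard error (SE) is the log2 fold change divided by the square root of F. The interaction with HKC-8 used 12 samples and the same filter. Deviations of same-numbered HKC-8 samples correlated at r = 0.197, 0.671 and 0.608, all over 0.1, which 1 HepG2 pair was not, so interaction results are also given with a replicate block where it changes a call or a list count. HKC-8 and RCC4 were each also fitted alone in the same way, and RCC4 was left out of the interaction because its labels give another oxygen level and duration. Lists are described by counts and medians, with no set test, and the members and lists were chosen with earlier results of these data known.

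Named genes were a fixed set, in each list up to 3 induced and 3 repressed members with the largest change among those with no overlap between groups, at least 1 CPM in the higher group and a call in all 6 fits without 1 sample, members called in opposite directions in HepG2 and HKC-8, the 10 highest and 10 lowest genes past the same conditions, and markers of other cell types above 1 CPM, apart from a few genes that are not reported here. Total counts per sample were 40915980 to 48355303 in HepG2. Alternatives were DESeq2 1.42.0, median-of-ratios size factors, 1 fit of 18 samples, no filter, a minimum of 10 counts per sample, a replicate block, and each sample left out. The edgeR tests were tested on simulated data, in which the interaction test made more false calls than its threshold aims at. Sequences are from RefSeq GRCh38.p14, and positions in GRCh37 from GENCODE. Figures were drawn with matplotlib 3.10.9.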

Additional observations from a re-analysis of the deposited data

Results flagged for a closer look

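The responses of HepG2 and HKC-8 cells to hypoxia differed at an adjusted interaction p under 0.05 for 755 genes that responded more and 644 that responded less in HepG2 cells. Among the genes named by rule, 79 had a called difference. Listed here are only those of the fixed set and those called in opposite directions in the lines. Higher responses given above, such as those of TNS1, CITED2 and LOX, are therefore left out. Of the listed genes, CA9 differed by 3.54, TF by 3.12 and PDK1 by 1.05 (log2 fold change in HepG2 minus that in HKC-8 cells), each higher in HepG2 cells. TF is near 0 CPM in HKC-8 cells, so its difference rests on few counts there, and its call was lost in DESeq2, with no filter, in 1 fit of all 18 samples and in 9 of the 12 fits without 1 sample.

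In the sterol and lipid genes the difference was -1.69 for HMGCS1, -1.62 for MSMO1, -1.42 for MVD, -1.29 for LSS, -1.27 for IDI1, -1.22 for STARD4, -1.08 for MVK, -1.07 for SQLE, -1.01 for CYP51A1, -0.97 for SC5DL, -1.75 for ACSS2 and -0.58 for GPAM. In the stress and amino acid genes it was -3.38 for NUPR1, -2.11 for SLC7A11, -1.90 for PSAT1, -1.86 for DDIT3, -1.69 for SESN2, -1.61 for CTH, -1.61 for PSPH, -1.19 for CEBPG, -0.84 for ATF4 and -0.79 for XBP1. Among the remaining genes it was -1.30 for CEBPA, -1.23 for ONECUT2, -0.67 for the interleukin-6 signal transducer IL6ST, 1.06 for ID1 and 1.43 for CYP24A1. Of these genes, CA9, TF, PDK1 and GPAM were not called in opposite directions in the lines, and the other 26 were. Among the 26, the repressed call of STARD4 in HepG2 cells was lost in 1 fit of all 18 samples (adjusted p = 0.109).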

How the results depend on the processing

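The 207 named genes that were tested kept their direction in all alternatives, apart from ALB and GLUL, which were not called. Higher responses outnumbered lower ones, as 755 to 644, but without HKC-8 normoxia replicate 3 they numbered 890 against 1000. Of 1230 values of named genes under other settings, 1216 kept their side of the threshold, 13 lost it and 1 gained it, and of 1242 values without 1 sample, 9 lost it and 4 gained it. With at least 10 counts in every sample, 42 genes were repressed at least 2-fold instead of 76, among 12888 genes tested instead of 13623. That filter removes any gene with fewer counts in a single sample, and how many of the 76 it removed was not counted. In 1 fit of all 18 samples, 1209 genes responded more and 1010 less in HepG2 than in HKC-8 cells, and the cause was not tested. Without 1 sample, the genes induced numbered 2205 to 2940, those repressed 1890 to 2918, those induced at least 2-fold 535 to 584 and those repressed at least 2-fold 58 to 97. The higher responses numbered 481 to 932 and the lower ones 430 to 1000. With liver-enriched genes set at a log2 difference of 4, 31.5% were induced, and fewer genes entered. Another scaling moved the median log2 fold change of all genes by 0.00. Of 480 list counts under other settings, 32 moved by over 1.5 times, and of 480 without 1 sample, 58. In 1 fit of all 18 samples, 6 coagulation factors and 4 cytochromes P450 and oxidoreductases were induced, 6 fatty acid oxidation and 11 ribosome biogenesis genes repressed. Of the 36 differences between the lines given for single genes, all kept their direction, and the calls changed for TF and INSIG2.

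Adding a replicate block gave 2951 induced and 2906 repressed genes in HepG2 cells, and 1656 responded more and 1363 less than in HKC-8 cells. Deviations of same-numbered HepG2 samples correlated at r = 0.265, 0.0426 and 0.240, and those of unlike-numbered samples at -0.267 to 0.0700. Each hypoxic sample correlated best with the normoxic sample of its number, but normoxia replicate 2 correlated better with hypoxia replicate 1 (0.0700). Whether same-numbered samples share more than a number was not tested. At this depth, changes in genes under about 1 CPM are not well resolved.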

Other observations

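A few genes chosen by the rule stood outside the accounts above. In the endoplasmic reticulum, DNAJB9, a cochaperone, changed by -0.52 (SE 0.07, adjusted p = 6.16e-05) and CRELD2 by -0.54 (SE 0.07, adjusted p = 3.60e-05), while the disulphide isomerase P4HB, also a subunit of prolyl 4-hydroxylase, changed by 0.42 (SE 0.06, adjusted p = 8.72e-05) and EDEM1, which feeds misfolded glycoproteins to degradation, by 0.30 (SE 0.06, adjusted p = 0.00244) on the log2 scale. In mitochondria, the NADP-linked isocitrate dehydrogenase IDH2 changed by 0.60 (SE 0.06, adjusted p = 8.25e-06), against -0.56 (SE 0.09, adjusted p = 1.84e-04) for SUCLG1, of succinyl-CoA ligase. BCKDHA, of branched-chain amino acid breakdown, changed by 1.11 (SE 0.08, adjusted p = 1.00e-07) and HPD, of tyrosine breakdown, by 0.34 (SE 0.06, adjusted p = 8.16e-04), the latter a call lost in 1 fit of all 18 samples (adjusted p = 0.347).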
